A study of Homo sapiens with 6 samples.

Results

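The genes described here are 49 human genes whose products build the centromere and kinetochore of the chromosome or run the spindle assembly checkpoint. They were listed by name and looked up by symbol in the table of read counts. All 49 were among the 26334 genes of that table, and all 49 also passed the filter on low counts that left 16117 genes for testing. They fall into 8 groups by role: 5 genes of centromeric chromatin and its loading, 13 of the constitutive centromere-associated network (CCAN), 10 of the KMN network, 3 of the SKA complex, 5 of the RZZ complex and corona, 5 of the checkpoint itself, 6 of the chromosomal passenger complex and the shugoshins, and 2 other genes with CENP symbols, CENPJ and CENPV.

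The values come from poly-A RNA-seq of MCF10DCIS.com (hereafter MCF10DCIS), a basal-like human breast cancer cell line derived from MCF10A that forms lesions resembling ductal carcinoma in situ in mice. A control group of 3 libraries (shLuc, the control hairpin) was compared with 3 libraries in which WDR5 was silenced (shWDR5), and the comparison asks which transcripts depend on WDR5, a scaffold protein shared by the enzymes that methylate lysine 4 of histone H3. Both groups carried a pRSI construct with the hairpin under the U6 promoter and TagRFP with puromycin resistance under UbiC, and both were grown in DMEM/F12 with horse serum and exposed to puromycin at 3 µg/ml to remove uninfected cells. The study describes shWDR5 as a pool of hairpins, so the effect of a single hairpin cannot be told apart, and the labels do not say whether the libraries of a group came from separate cultures, so the p-values measure only the spread between these libraries.

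The libraries held 38218108 to 57640167 counted reads. WDR5 itself measured 16.5, 15.2 and 16.1 RPKM (reads per kilobase of exon, scaled to library size with TMM factors) in shLuc libraries 1, 2 and 3 and 7.35, 7.65 and 6.52 RPKM in the shWDR5 libraries, with no overlap (log2 fold change −1.15 ± 0.07 SE, adjusted p = 8.67e-07). All 11 markers of breast epithelium on a chosen list were above 1 RPKM in at least 1 library. The list mixed basal genes with KRT8, KRT18, EPCAM and CDH1, which are not particular to basal cells. The 11 genes summed to 4787 to 5120 RPKM in shLuc and 6507 to 7236 RPKM in shWDR5. Of that list 5 were higher (KRT5, KRT14, KRT17, TP63 and ITGB4), 3 lower (CDH1, EPCAM and EGFR) and 3 not called (ITGA6, KRT8 and KRT18). Of 7 fibroblast markers only COL1A1 was above 1 RPKM and LUM was at 0, with summed levels of 3.65 to 4.01 RPKM in shLuc and 2.52 to 3.05 RPKM in shWDR5. Of 6 leukocyte markers CD68 and LYZ were above 1 RPKM and CD3E was at 0, with sums of 7.55 to 8.77 and 7.77 to 8.94 RPKM. Sums were 18.9 to 22.2 RPKM in shLuc and 14.5 to 16.4 RPKM in shWDR5 for 5 hormone receptor luminal markers, and 1.75 to 1.87 and 1.15 to 1.30 RPKM for 4 endothelial markers. The 100 most abundant genes took 19.3 to 20.3% of the reads in shLuc and 22.7 to 23.7% in shWDR5. In both groups replicate 1 stood apart from replicates 2 and 3 on the second principal component.

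The kinetochore is a layered protein machine that forms on each centromere when a cell enters mitosis and that holds the ends of spindle microtubules. Its base is chromatin carrying CENP-A, a variant of histone H3 that marks the centromere through cell generations. The CCAN sits on this chromatin throughout the cell cycle, and the KMN network, whose NDC80 complex grips the microtubule, assembles on the CCAN in mitosis. Kinetochores without a proper attachment recruit the checkpoint proteins, which hold back the anaphase-promoting complex, while the chromosomal passenger complex with Aurora B kinase releases faulty attachments. Many of these genes are transcribed mostly in late S, G2 and M phase and are low in resting cells, so the RNA of dividing tumour cells is rich in them.

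Of the 49 genes, 44 (89.8%) were lower in shWDR5 than in shLuc at an adjusted p below 0.05 (edgeR quasi-likelihood test, Benjamini-Hochberg over all 16117 genes), against 29.9% of all genes tested. None was called higher, against 26.6% of all genes. At an unadjusted p below 0.05 the same test put 44 genes lower and 1 higher. The shares of all genes at this unadjusted limit are not given here, so these counts have no background. DESeq2 called 0 of the 49 higher, and over all genes it called fewer higher than the edgeR test did. With upper-quartile scaling 1 gene (CENPT) was called higher, and without shLuc replicate 1 there were 2 (CENPB and CENPT). A fit with replicate number as a block also called these 2 higher. Over all genes, upper-quartile scaling and the block each called more genes higher than the edgeR test on group alone. Leaving out shLuc replicate 1 called slightly fewer. The 5 genes that did not pass the test were CENPB, OIP5, CENPT, MIS12 and PMF1. When a log2 fold change of at least 0.6 was also required, 31 genes were lower (63.3%), against 12% of all genes, and 0 were higher, against 10.9%. For 44 genes every shWDR5 library lay below every shLuc library, which held for 32.4% of all genes. The opposite order, which 29.9% of all genes showed, occurred for none of the 49.

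The median log2 fold change was −0.71, so the level of the median gene fell by 38.8%, and the median over all tested genes was −0.01. Single genes ranged from −1.58 for SPC24 to 0.18 for CENPT. SPC24, KNTC1, NUF2, CENPF, CASC5, TTK and MIS18A fell by more than 50%. The share of all tested genes that fell this far was not counted. Summed over the 49 genes, the level was 2290.3, 2412 and 2378.5 CPM (TMM-scaled) in shLuc libraries 1, 2 and 3 and 1402.7, 1494.3 and 1475.4 in the shWDR5 libraries. All 3 shWDR5 sums lay below all 3 shLuc sums. The libraries are bulk samples, so fewer cells of a type, such as cells in G2 or mitosis, and less RNA per cell cannot be told apart.

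**Figure D1:**
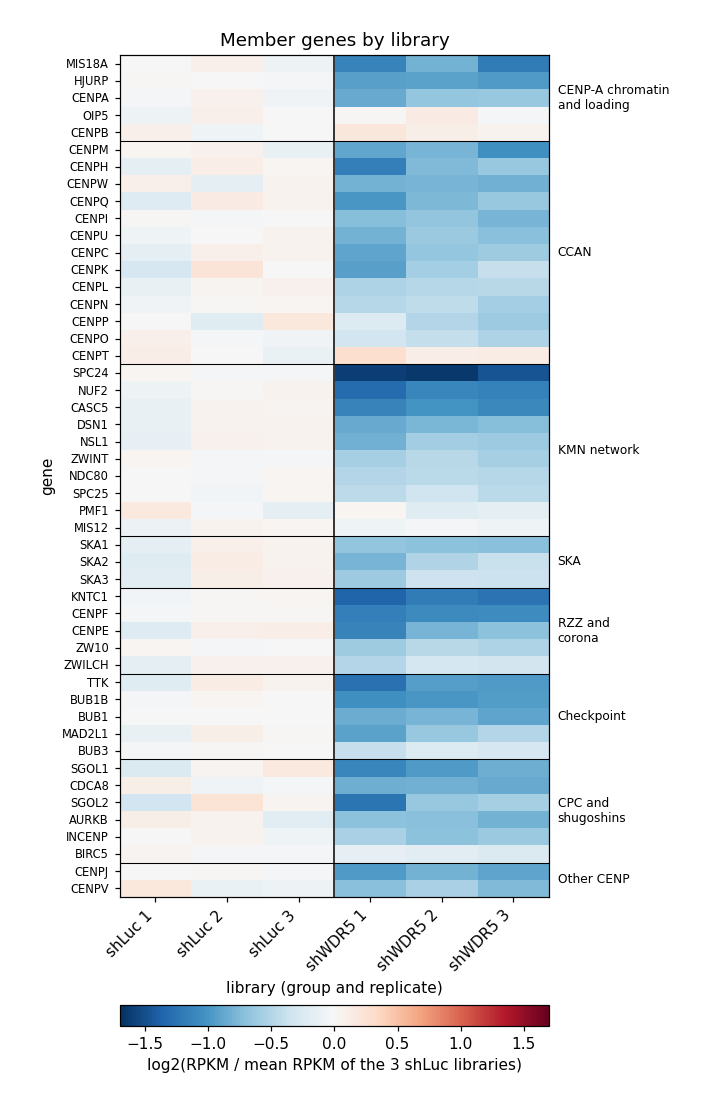
Level of each of the 49 genes (rows, grouped by role) in each of the 6 libraries (columns), as log2 of its RPKM over the mean RPKM of the 3 shLuc libraries. Blue is lower and red is higher than the shLuc mean. The shWDR5 columns are blue for nearly all genes, deepest for SPC24, and pale for CENPB, OIP5, CENPT, MIS12 and PMF1.

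Levels were close between libraries of a group. The coefficient of variation of RPKM had a median of 6.04% over the genes in shLuc and 5.93% in shWDR5, with the highest values 18.9% and 23.8%. Relative to the shLuc mean, the median gene stood at −0.03, 0.03 and 0.03 on the log2 scale in shLuc libraries 1, 2 and 3 and at −0.80, −0.66 and −0.63 in the shWDR5 libraries. The replicate 1 library was therefore the lowest in both groups. For 23 of 49 genes (46.9%) replicate 1 was the lowest library of its group in both groups, as it was for 23.4% of all genes tested. For SGOL2, replicate 1 stood below the group mean by 20.3% in shLuc and by 27.3% in shWDR5. With both replicate 1 libraries left out, the same 44 genes were lower, the median log2 fold change was −0.69, and CENPT was called higher (0.20, adjusted p = 0.032).

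Promoter sequence was looked at because many mitotic genes share short promoter motifs: the CHR (cell cycle genes homology region), the CCAAT box bound by NF-Y, and E2F sites. RefSeq promoter windows (GRCh38.p14, 250 bases before to 50 after the start) matched 40 of the 49 genes, 3 of them by an older symbol. The genes without a matched window were MIS18A, CENPH, CENPL, CENPM, CASC5, KNTC1, BUB3, TTK and BIRC5. The letters TTTGAA or TTCGAA (CHR) stood on either strand in 21 of 40 genes (52.5%) and in 19.5% of the 27305 genes with a window. CCAAT was found in 26 of 40 (65.0%) and in 39.7% of all genes, and TTCCCGC or TTGGCGC (E2F) in 11 of 40 (27.5%) and in 11.0% of all genes. Counted over single windows of equal length, the shares were 47.8% of 46 windows against 16.4% of 35116 for the CHR and 65.2% against 34.6% for CCAAT. The 27305 genes include genes that did not pass the low-count filter here, while all 40 members passed it. A match of letters is a description of the window and not a measured binding site.

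The last 120 bases before the start are printed for 8 genes, in lower case with matches to the 3 motifs on either strand in capitals, so that the genes that fell can be read beside those that did not pass the test. BUB1B, CDCA8, CENPA and INCENP each hold a CHR within 25 bases of the start. In CDCA8 the CHR shares its last base with a CCAAT box on the other strand. CENPF and SPC24 show CCAAT boxes in this stretch and no CHR. CENPF holds a CHR outside the stretch, at bases 41 to 46 after the start, and counts below as a gene with a CHR. Of the genes that were not called, CENPB holds one E2F match in its stretch and CENPT none of the motifs. These 8 genes do not stand for the rest: over the whole window OIP5, which was not called, holds all 3 motifs, and MIS12 and PMF1, also not called, hold CCAAT and E2F matches. CENPI, DSN1, NSL1, CENPE, CENPJ and CENPV were called lower and hold none of the motifs. The starts of the windows (GRCh38.p14) were not compared with those of the counted genes (hg19). A window without a motif, such as that of CENPI, may therefore lie away from the promoter in use.
BUB1B (GRCh38.p14 chr15:40160949-40161068, plus strand): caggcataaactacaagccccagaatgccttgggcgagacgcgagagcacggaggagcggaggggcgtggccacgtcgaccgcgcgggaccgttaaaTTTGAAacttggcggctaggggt
CDCA8 (GRCh38.p14 chr1:37692396-37692515, plus strand): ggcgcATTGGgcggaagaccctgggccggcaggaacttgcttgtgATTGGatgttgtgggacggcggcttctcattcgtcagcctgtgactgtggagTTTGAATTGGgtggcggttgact
CENPA (GRCh38.p14 chr2:26785936-26786055, plus strand): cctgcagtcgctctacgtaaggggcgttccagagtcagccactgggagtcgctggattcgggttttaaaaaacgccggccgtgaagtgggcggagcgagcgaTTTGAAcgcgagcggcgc
INCENP (GRCh38.p14 chr11:62123891-62124010, plus strand): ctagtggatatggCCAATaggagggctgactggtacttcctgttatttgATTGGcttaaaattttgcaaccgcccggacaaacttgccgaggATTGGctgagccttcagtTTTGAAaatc
CENPF (GRCh38.p14 chr1:214603075-214603194, plus strand): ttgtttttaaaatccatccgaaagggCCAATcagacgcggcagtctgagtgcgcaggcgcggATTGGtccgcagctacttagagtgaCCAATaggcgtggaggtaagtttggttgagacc
SPC24 (GRCh38.p14 chr19:11155783-11155902, minus strand): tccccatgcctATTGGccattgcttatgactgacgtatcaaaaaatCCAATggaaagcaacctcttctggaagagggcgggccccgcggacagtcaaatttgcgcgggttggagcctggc
CENPB (GRCh38.p14 chr20:3786741-3786860, minus strand): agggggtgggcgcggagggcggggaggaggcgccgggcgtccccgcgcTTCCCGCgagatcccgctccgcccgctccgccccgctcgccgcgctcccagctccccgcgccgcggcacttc
CENPT (GRCh38.p14 chr16:67847694-67847813, minus strand): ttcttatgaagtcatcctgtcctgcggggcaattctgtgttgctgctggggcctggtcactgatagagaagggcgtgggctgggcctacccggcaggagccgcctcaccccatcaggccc

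Within the 40 genes, the medians with and without a motif were close for the CHR and CCAAT and further apart for E2F. The median log2 fold change was −0.69 for the 21 genes with a CHR, of which 20 were called lower, and −0.67 for the 19 without, of which 15 were. For CCAAT the medians were −0.69 for 26 genes with and −0.68 for 14 without. Genes with an E2F match had a median of −0.49 (7 of 11 lower), and genes without had −0.73 (28 of 29 lower). These splits were made with the values known and were not tested.

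In centromeric chromatin, 3 of 5 genes fell: CENPA, its chaperone HJURP, and MIS18A, which prepares the centromere for new CENP-A. HJURP (hg19 chr2:234745347-234763212, minus strand) measured 26.5, 26.2 and 25.4 RPKM in shLuc and 13.7, 13.9 and 13.4 RPKM in shWDR5. MIS18A measured 9.39, 9.96 and 8.87 RPKM against 4.27, 5.38 and 4.11 RPKM. CENPA measured 15.7, 16.7 and 15.2 RPKM against 8.75, 10.0 and 10.2 RPKM. None of the 3 had overlapping groups. The log2 fold changes were −0.93 ± 0.05 (SE, adjusted p = 4.79e-07) for HJURP, −1.03 ± 0.11 (adjusted p = 1.86e-05) for MIS18A and −0.72 ± 0.08 (adjusted p = 3.03e-05) for CENPA.

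The other two genes of this group did not pass the test. CENPB, which binds a short box in alpha-satellite DNA, measured 30.7, 27.6 and 28.8 RPKM in shLuc and 33.2, 31.0 and 30.3 RPKM in shWDR5. Its groups overlapped, and the 95% interval of the log2 difference ran from −0.02 to 0.25 (adjusted p = 0.137). Without shLuc replicate 1 it was called higher (0.17, adjusted p = 0.043), as it was with a replicate block (0.12, adjusted p = 0.025). OIP5 (MIS18B), the partner of MIS18A in the Mis18 complex, measured 7.25, 8.14 and 7.68 RPKM against 7.77, 8.46 and 7.51 RPKM, with overlap and an interval from −0.14 to 0.23 (adjusted p = 0.666).

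In the CCAN, 12 of 13 genes fell, with a median log2 fold change of −0.71. CENPU, of the CENP-O/P/Q/U assembly that helps bring PLK1 to kinetochores, measured 17.1, 17.9 and 18.8 RPKM in shLuc and 10.3, 11.6 and 10.9 RPKM in shWDR5 (log2 fold change −0.71 ± 0.07, adjusted p = 1.11e-05). CENPI, of the CENP-H/I/K/M assembly, measured 5.54, 5.32 and 5.47 RPKM against 3.28, 3.42 and 3.14 RPKM (−0.73 ± 0.07, adjusted p = 1.33e-05). CENPM, its small GTPase-like partner, measured 10.5, 10.8 and 9.35 RPKM against 5.52, 5.90 and 4.94 RPKM (−0.90 ± 0.09, adjusted p = 1.43e-05). All 3 had shWDR5 libraries entirely below the shLuc libraries. Of the others, the log2 fold change was −0.83 for CENPH, −0.80 for CENPW, −0.79 for CENPQ and −0.71 for CENPC, the protein that links CENP-A nucleosomes to the outer kinetochore. It was −0.61 for CENPK, −0.50 for CENPL and −0.49 for CENPN, the pair that also contacts CENP-A nucleosomes, and −0.42 for CENPO. CENPP had the lowest level of all 49 genes, at 0.686, 0.593 and 0.773 RPKM in shLuc and 0.585, 0.486 and 0.446 RPKM in shWDR5. Its libraries did not overlap, though by a margin smaller than the spread within a group, and its call was the nearest to the threshold (−0.44 ± 0.15, adjusted p = 0.026). It was lost under DESeq2 (adjusted p = 0.064).

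CENPT was the 1 CCAN gene that did not fall. CENPT pairs with CENPW in a histone-fold complex that offers a second route to the NDC80 complex. It measured 11.5, 10.6 and 9.83 RPKM in shLuc and 13.0, 11.5 and 11.7 RPKM in shWDR5. One pair of libraries overlapped, at 11.478 against 11.472 RPKM. The log2 fold change was 0.18 ± 0.08 with a 95% interval from 0.0008 to 0.35 (adjusted p = 0.081). It was called higher with upper-quartile scaling (0.21, adjusted p = 0.048) and without shLuc replicate 1 (0.25, adjusted p = 0.021). The same held with a replicate block (0.18, adjusted p = 0.011).

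Exon sharing limits some of these values, since the strand setting of the read counting is not given in the sources used here. Of the 49 genes, 9 share exonic bases with another gene of the table, 5 of them over more than 10% of their exon length. CENPP shares 53.9% of its exon length with IPPK, CENPO 23.8% with ADCY3 and CENPU 17.2% with PRIMPOL, all on the opposite strand. SGOL1 shares 16.6% with its antisense gene SGOL1-AS1, which had 0 to 4 reads. PMF1 shares 48.0% with the read-through gene PMF1-BGLAP on the same strand, which had 0 reads in every library. Reads over the shared exons were thus not counted for PMF1-BGLAP. Whether they were also dropped for PMF1, which would lower its RPKM, was not tested.

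The KMN network held the widest range: 8 of 10 genes fell, from −0.41 to −1.58 on the log2 scale. SPC24 (hg19 chr19:11257831-11266484, minus strand), whose product anchors the NDC80 complex at its inner end, measured 18.1, 17.4 and 17.5 RPKM in shLuc and 5.81, 5.65 and 6.37 RPKM in shWDR5. It fell by 66.5%, the largest change of the 49 (−1.58 ± 0.08, adjusted p = 2.68e-07). NUF2 (hg19 chr1:163291723-163325553, plus strand), the partner of NDC80 at the microtubule-binding end, measured 18.0, 19.5 and 20.0 RPKM against 7.77, 8.90 and 8.62 RPKM (−1.18 ± 0.08, adjusted p = 8.43e-07). CASC5 (KNL1), the scaffold on which the BUB proteins gather, measured 9.05, 10.3 and 10.2 RPKM against 4.47, 4.85 and 4.61 RPKM (−1.08 ± 0.07, adjusted p = 8.13e-07). In each of these genes the lowest shLuc library was well above the highest shWDR5 library.

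The other two subunits of the NDC80 complex changed less. NDC80 measured 12.1, 11.9 and 12.4 RPKM in shLuc and 8.58, 8.80 and 8.63 RPKM in shWDR5 (log2 fold change −0.48 ± 0.06). SPC25, the direct partner of SPC24, measured 12.3, 11.9 and 12.5 RPKM against 8.97, 9.65 and 8.91 RPKM (−0.41 ± 0.07). Both were called lower without overlap. In the Mis12 complex, which joins the CCAN to CASC5 and the NDC80 complex, DSN1 (−0.78) and NSL1 (−0.67) fell. MIS12 (−0.05, 95% interval −0.21 to 0.10, adjusted p = 0.533) and PMF1 (−0.12, interval −0.34 to 0.11, adjusted p = 0.354) did not pass the test. ZWINT, which binds CASC5, fell by 0.53 on the log2 scale.

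All 3 genes of the SKA complex, which tracks microtubule ends beside NDC80, fell. SKA1 measured 5.67, 6.74 and 6.58 RPKM in shLuc and 3.97, 3.91 and 3.86 RPKM in shWDR5 (−0.69 ± 0.08, adjusted p = 4.55e-05). SKA2 measured 23.5, 29.7 and 28.4 RPKM against 15.7, 19.0 and 20.9 RPKM (−0.55 ± 0.11, adjusted p = 1.73e-03). SKA3 measured 4.86, 5.94 and 5.81 RPKM against 3.60, 4.34 and 4.30 RPKM (−0.44 ± 0.10, adjusted p = 3.94e-03). The groups did not overlap, but for SKA2 and SKA3 replicate 1 was the lowest library in both groups. Only SKA1 passed the log2 0.6 limit.

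In the RZZ complex and the corona, the fibrous outermost layer of unattached kinetochores, all 5 genes fell. CENPF (hg19 chr1:214776532-214837914, plus strand), a large corona protein that binds microtubules and dynein regulators, measured 38.5, 39.9 and 40.0 RPKM in shLuc and 17.7, 18.6 and 18.8 RPKM in shWDR5 (−1.10 ± 0.05, adjusted p = 1.59e-07). KNTC1 (ROD; hg19 chr12:123011809-123110947, plus strand), the large subunit of RZZ, measured 11.6, 12.2 and 12.4 RPKM against 4.70, 5.29 and 5.03 RPKM (−1.27 ± 0.06, adjusted p = 2.24e-07). ZW10, which links RZZ to dynein, measured 9.60, 9.30 and 9.35 RPKM against 6.19, 6.77 and 6.56 RPKM (−0.53 ± 0.06, adjusted p = 5.69e-05). The gap between groups was wide for CENPF and KNTC1 and narrower for ZW10. ZWILCH, the remaining RZZ subunit, fell by 0.37 on the log2 scale, and CENPE, the kinesin that moves chromosomes to the spindle equator, by 0.86.

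All 5 checkpoint genes fell, with a median log2 fold change of −0.84. BUB1B (BubR1), a subunit of the inhibitor of the anaphase-promoting complex, measured 29.7, 30.9 and 30.0 RPKM in shLuc and 14.7, 15.2 and 15.6 RPKM in shWDR5 (−0.99 ± 0.05, adjusted p = 3.17e-07). BUB1, a kinase that marks the inner centromere, measured 25.2, 25.3 and 25.1 RPKM against 14.0, 14.6 and 13.5 RPKM (−0.84 ± 0.05, adjusted p = 9.38e-07). TTK (MPS1), the kinase that starts checkpoint signalling, measured 15.3, 19.1 and 18.4 RPKM against 7.33, 9.21 and 9.05 RPKM (−1.04 ± 0.11, adjusted p = 1.77e-05). Each shLuc library of these 3 genes exceeded each shWDR5 library. MAD2L1, whose product changes shape to bind CDC20, fell by 0.67 on the log2 scale. BUB3, the carrier of BUB1 and BubR1, had the highest level of the 49 genes and the smallest checkpoint change. It measured 48.7, 50.6 and 50.1 RPKM against 38.1, 42.4 and 40.7 RPKM, a fall of 18.9% (−0.30 ± 0.06, adjusted p = 1.10e-03).

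**Figure D2:**
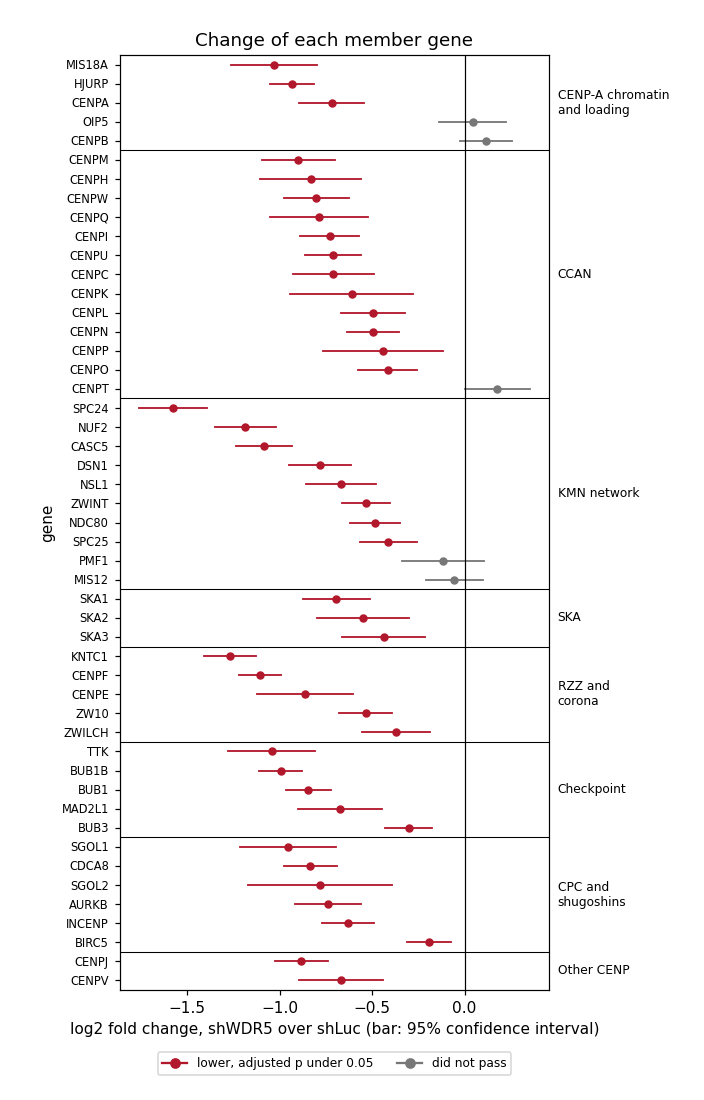
Log2 fold change (shWDR5 over shLuc) of each of the 49 genes with its 95% interval, grouped by role. Red points passed an adjusted p of 0.05 and grey points did not. SPC24 is lowest at −1.58, and the 5 genes that did not pass lie between −0.12 and 0.18.

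The chromosomal passenger complex and the shugoshins, which guard cohesin at the centromere, fell in 6 of 6 genes. CDCA8 (borealin), whose promoter stretch is printed above, measured 18.9, 16.9 and 17.2 RPKM in shLuc and 9.95, 10.0 and 9.75 RPKM in shWDR5 (−0.83 ± 0.07, adjusted p = 2.96e-06). INCENP, the scaffold of the complex, measured 15.5, 16.0 and 14.6 RPKM against 10.5, 9.46 and 9.94 RPKM (−0.63 ± 0.06, adjusted p = 1.66e-05). AURKB, the kinase, measured 35.5, 34.6 and 29.2 RPKM against 20.4, 20.2 and 19.0 RPKM (−0.74 ± 0.08, adjusted p = 2.89e-05). In none of these did a shWDR5 library reach a shLuc library. The smallest change of the group was that of BIRC5 (survivin), at 35.0, 33.5 and 33.5 RPKM against 30.8, 29.8 and 28.7 RPKM, a fall of 12.5% (−0.19 ± 0.05, adjusted p = 0.012). The BIRC5 call was lost with upper-quartile scaling (adjusted p = 0.051), without shLuc replicate 1 (adjusted p = 0.050) and without shWDR5 replicate 3 (adjusted p = 0.055). SGOL1 and SGOL2 fell by 0.96 and 0.78 on the log2 scale.

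Both remaining genes with CENP symbols act partly elsewhere. CENPJ (CPAP), which sets centriole length, measured 7.06, 7.21 and 6.99 RPKM in shLuc and 3.65, 4.07 and 3.82 RPKM in shWDR5 (−0.88 ± 0.07, adjusted p = 2.10e-06). CENPV, named for a centromere role, measured 9.20, 7.47 and 7.64 RPKM against 4.97, 5.53 and 4.81 RPKM (−0.67 ± 0.10, adjusted p = 2.97e-04). Neither gene had overlapping groups.

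Subunits of the same assembly did not all change by the same amount, so the RPKM ratio of each pair of subunits was taken within each library. There were 43 such pairs in 12 assemblies, which were chosen with the values known. In 26 pairs (60.5%) the shLuc and shWDR5 ratios did not overlap, against 61.7% of all pairs of tested genes, so the count is no result about these assemblies, and each of these had an exact permutation p of 0.1 (two-sided), the smallest that 3 libraries against 3 can give. After Benjamini-Hochberg adjustment over the 43 pairs the smallest adjusted value was 0.165. The difference in log2 ratio exceeded 0.5 in size for 17 pairs (39.5%), against 49.8% of all pairs. The ratios that follow describe single pairs.

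SPC24 to SPC25, which form a dimer, had the ratio with the largest shift. It was 1.48, 1.47 and 1.40 in shLuc libraries and 0.648, 0.586 and 0.715 in shWDR5 libraries, a log2 difference of −1.16. MIS18A to OIP5 went from 1.30, 1.23 and 1.15 to 0.550, 0.636 and 0.548 (−1.09). CENPT to CENPW moved the other way, from 1.81, 1.99 and 1.58 to 3.79, 3.32 and 3.45 (0.98). In these pairs 1 partner fell and the other fell less or did not pass the test. KNTC1 to ZWILCH went from 1.07, 0.960 and 0.974 to 0.551, 0.538 and 0.518 (−0.90). BIRC5 to CDCA8 rose in ratio from 1.86, 1.99 and 1.94 to 3.10, 2.97 and 2.94 (0.64). NDC80 to SPC25 shifted far less, also without overlap, at 0.985, 1.01 and 0.988 in shLuc and 0.957, 0.912 and 0.968 in shWDR5 (−0.07). The CENPL to CENPN ratio differed by 0.002 on the log2 scale, with overlap.

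**Figure D3:**
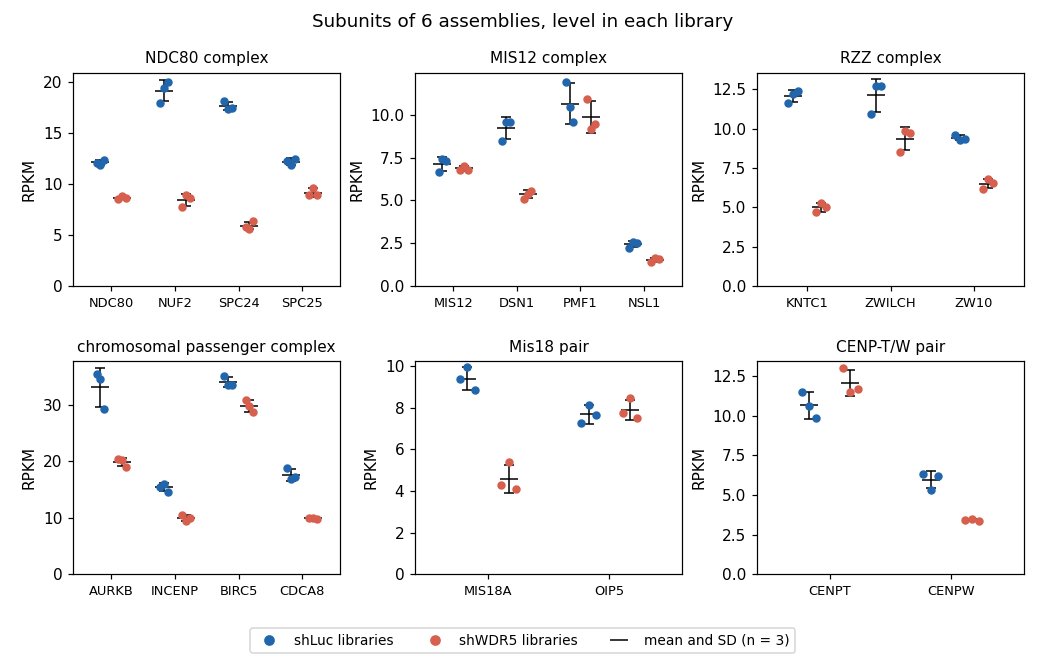
RPKM of subunits in 6 assemblies, 1 point per library, shLuc beside shWDR5, with the mean and SD of each group (n = 3). In the NDC80 complex the subunits lie between 11.9 and 20.0 RPKM in shLuc, and in shWDR5 SPC24 lies at 5.65 to 6.37 RPKM and the others at 7.77 to 9.65 RPKM.

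The wider pathway was read from lists of other genes that act with these. Of 27 other centromere, kinetochore and checkpoint genes, 19 (70.4%) were lower and 3 (11.1%) were higher. Over all tested genes the shares were 29.9% lower and 26.6% higher. The median log2 fold change of the 27 genes was −0.49. Among the lower ones, KIF2C (MCAK), which depolymerises microtubules at faulty attachments, had a log2 fold change of −1.01 ± 0.06 (adjusted p = 8.56e-07). GSG2 (haspin), whose histone mark recruits the passenger complex, had −1.13 ± 0.07 (adjusted p = 8.90e-07), and NEK2, a centrosomal kinase, had −1.30 ± 0.09 (adjusted p = 1.01e-06). The higher ones were NDEL1, a dynein regulator (0.28), CENPBD1 (0.34) and MAD2L1BP, a checkpoint silencer (0.19). The replication licensing list also held CDC45, GINS1 to GINS4 and MCM10, which act in later steps of replication initiation. Its genes act in G1 and S phase, and 15 of 15 (100%) were lower, with a median of −0.72. Among them MCM5 had the lowest adjusted p (−1.24 ± 0.06, adjusted p = 1.81e-07). Of 20 G2/M regulators 16 (80%) were lower and 1 (5%), E2F4, was higher, with a median of −0.74. MKI67 had the lowest adjusted p of these (−1.10 ± 0.05, adjusted p = 1.81e-07). The medians of the licensing and G2/M lists lay close to that of the 49 genes, and that of the 27 other centromere, kinetochore and checkpoint genes was nearer to 0. The part of cell cycle distribution in these values was not tested.

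**Figure D4:**
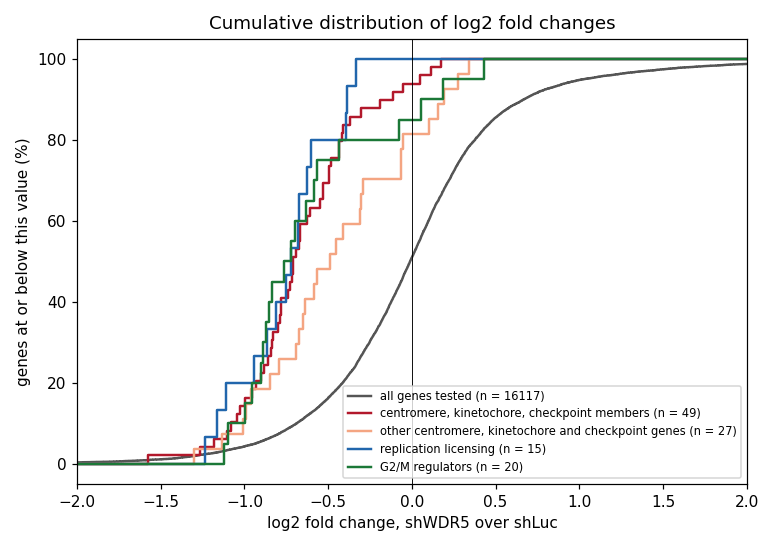
Cumulative share of genes (vertical axis, %) at or below each log2 fold change (shWDR5 over shLuc, horizontal axis), for all 16117 tested genes, the 49 centromere, kinetochore and checkpoint genes and the 3 further lists. The curve of the 49 genes runs left of that of all genes, with medians at −0.71 and −0.01, and the replication licensing and G2/M curves lie beside it.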

How the data were processed

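RNA-seq of 3 shLuc and 3 shWDR5 libraries of MCF10DCIS was used. The authors aligned reads to hg19 (GRCh37) with TopHat2 2.1.0 and deposited raw counts per gene from featureCounts, per the labels, with no normalization. The annotation release, strand and multi-mapping settings are not given in the sources used here. A deposited edgeR (3.2.2) table holds the authors' own fold changes and p-values and was not used.

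Libraries held 48500509, 38218108 and 39327358 counted reads in shLuc and 47723477, 57640167 and 46097058 in shWDR5, and at this depth the 49 genes had 74 to 19604 reads. Counts were filtered with filterByExpr, scaled by TMM and tested by the edgeR quasi-likelihood test (edgeR 4.0.16, R 4.3.3) on group alone, two-sided, with Benjamini-Hochberg adjustment over 16117 genes and a threshold of 0.05. The SE is the log2 fold change over the root of F, and values after ± are SEs unless said otherwise. RPKM used the exon lengths of the deposited table and TMM-scaled library sizes.

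The script was tested on simulated data. Replicate libraries all differed by more than sampling noise, so none was merged. The genes and lists were chosen with earlier results of these data known. Full values are given for the 3 genes of lowest adjusted p in each role group, the genes nearest the threshold on either side and the extremes of level. Genes such as BIRC5, NDC80 and SPC25 were added after their values were seen, as were the promoters printed. Alternatives were DESeq2 1.42.0, other scalings (RLE, upper-quartile, library totals), other filters, a likelihood ratio test, the study's log2 limit of 0.6, a replicate block, leaving out each library and, chosen after seeing the data, leaving out both replicate 1 libraries. Figures were drawn with matplotlib 3.10.9.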

Additional observations from a re-analysis of the deposited data

How the results depend on the processing

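Of the 44 genes called lower, 42 to 44 remained so in every alternative of tool, scaling, filter, test, block or left-out library, and scaling moved the median of all genes by at most 0.06 (log2). The number of the 49 genes called higher was 0 and became 1 with upper-quartile factors (1 CCAN gene, CENPT), 1 without both replicate 1 libraries (1 CCAN gene, CENPT, 0.20), and 0 to 2 when single libraries were left out (0 to 1 each in the CENP-A and CCAN groups). The 2 appeared without shLuc replicate 1, as CENPB (0.17, adjusted p = 0.043) and CENPT (0.25, adjusted p = 0.021). With the replicate block 2 were higher, 1 of the CENP-A group (CENPB, 0.12) and 1 of the CCAN (CENPT, 0.18). The numbers share no stated batch or culture. Deviations of same-numbered libraries correlated at 0.636, 0.082 and 0.242, and shLuc replicate 2 was closest to shWDR5 replicate 3. The main fit was planned on group alone and took no pairs. The 2 replicate 1 libraries did deviate alike (0.636), and whether they share a batch is not stated. Deviations were taken from the mean of each group of 3, so these correlations are not independent. Requiring a log2 fold change of 0.6 left 1939 genes lower and 1751 higher over all genes, 5 of the KMN network, 1 of SKA and 3 of RZZ and corona. OIP5, never called, changed sign with library totals only (−0.012) and ran from −0.007 to 0.08 when single libraries were left out. CENPP lost its call under DESeq2 (−0.42) and without shLuc replicate 1 (adjusted p = 0.057), shLuc replicate 3 (0.091), shWDR5 replicate 2 (0.080) or shWDR5 replicate 3 (0.084), and the cause was not tested. At 3 libraries a group no exact test of a single ratio can reach 0.05, and the lowest count of any of the 49 genes in a library was 74 reads, for CENPP.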
